A study of Mus musculus with 6 samples.

Results

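Macrophages of the healing infarct secrete growth factors that act on fibroblasts, mural cells and endothelium. The 9 genes described here belong to 3 such systems and were chosen by name: Igf1, Igf1r, Igf2r and Igfbp4 for insulin-like growth factor (IGF), Hgf and Met for hepatocyte growth factor (HGF), and Pdgfa, Pdgfb and Pdgfc for platelet-derived growth factor (PDGF). Each name matched 1 row of the 54532 genes in the count table, and all 9 passed the expression filter that kept 14522 genes for testing. RNA-seq libraries of cardiac macrophages of 3 ITGA5 fl/fl (control) and 3 Myα5KO samples were compared, to ask whether loss of the integrin α5 chain alters the transcripts of these factors.

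All mice were of the C57BL/6 strain, were 12 weeks old per the labels, and were sampled 7 days after permanent coronary occlusion. Both groups carried ITGA5 alleles flanked by recombination sites, and Myα5KO mice in addition carried Cre recombinase under the lysozyme M (LyzM) promoter, which is active in myeloid cells and not in macrophages alone. Libraries of mice with Cre and intact ITGA5 were not analysed here, so Cre itself and loss of ITGA5 cannot be told apart. Cells were depleted of those carrying Ly6G and enriched for CD11b on magnetic columns. The study digested hearts of individual mice, but the labels do not say whether a library held 1 heart, so p-values measure the spread between these libraries only.

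IGF-1 signals through the receptor tyrosine kinase IGF1R. IGF2R is an endocytic receptor that clears IGF-2 and carries lysosomal enzymes, and IGFBP4 binds IGF in the extracellular space and restrains it. HGF activates the receptor MET. PDGF chains form dimers that bind PDGF receptors on fibroblasts, pericytes and smooth muscle cells. PDGF-A acts through the α receptor only, PDGF-B through both receptors, and PDGF-C is secreted in a latent form that proteases open. In wound repair these factors are known for recruiting fibroblasts and mural cells, for vessel maturation and for cell survival.

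Total counts ranged from 15424451 to 18152357 in the control libraries and from 18232574 to 18419287 in the Myα5KO libraries. Itga5 was at 607 ± 43.2 CPM (read counts scaled to library size with TMM factors) in control and 48.7 ± 1.48 CPM in Myα5KO (SD, n = 3 each), or 8.02% of control, and Lyz2, which holds the Cre insertion, was at 53.0% of control. The defining macrophage markers were abundant, with 8 markers summing to 10387 to 10509 CPM in control and 9846 to 10344 CPM in Myα5KO. These sums did not overlap, being lower in Myα5KO. Taken alone, 0 of the 8 markers had all Myα5KO libraries below the controls, and 1 had them above. Of the 8 markers 1 rose and 0 fell, and 7 had a negative log2 difference. Other cell types left smaller traces, and several moved with the genotype. In the same order, the summed markers were 1626 to 1906 and 1222 to 1586 CPM for fibroblasts (1 of 10 fell, 0 rose), 355 to 431 and 524 to 539 CPM for monocytes (3 of 6 rose, 0 fell), 27.7 to 47.9 and 63.7 to 172 CPM for neutrophils (4 of 5 tested rose, 0 fell), 61.1 to 95.7 and 95.6 to 149 CPM for T and B cells (2 of 4 tested rose, 0 fell) and 21.3 to 23.6 and 13.6 to 17.5 CPM for cardiomyocytes (3 of 7 fell, 0 rose). Ly6g, which defines neutrophils, had at most 2 counts in a library. The part of these cells in the results below was not tested, and in bulk libraries fewer cells of a type and less RNA per cell cannot be told apart.

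Of the 9 genes, 2 were lower in Myα5KO macrophages and 0 were higher at an adjusted p of 0.05 or less in edgeR. Sizes are given as log2 differences (log2 fold changes), Myα5KO minus control. The genes that fell were Pdgfa and Igfbp4. Over all tested genes 8.75% were called, 5.19% as lower and 3.56% as higher, and a count of 2 among 9 is too small to set apart from that background. At an unadjusted p under 0.05 there were 5 of the 9, of which Igf1, Igfbp4 and Pdgfa were lower and Met and Pdgfb higher, against 23.1% of all tested genes. DESeq2 called 3 of the 9 lower and 0 higher, adding Igf1 (9.01% of all genes it tested were called), and limma-voom called 2 lower and 0 higher. The median log2 difference of the 9 was -0.08, and that of all tested genes was 0.0146. The libraries of the groups did not overlap for Igf1, Igfbp4 and Pdgfa, which were lower, and for Met, which was higher. Over all tested genes 28.6% did not overlap.

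**Figure D1:**
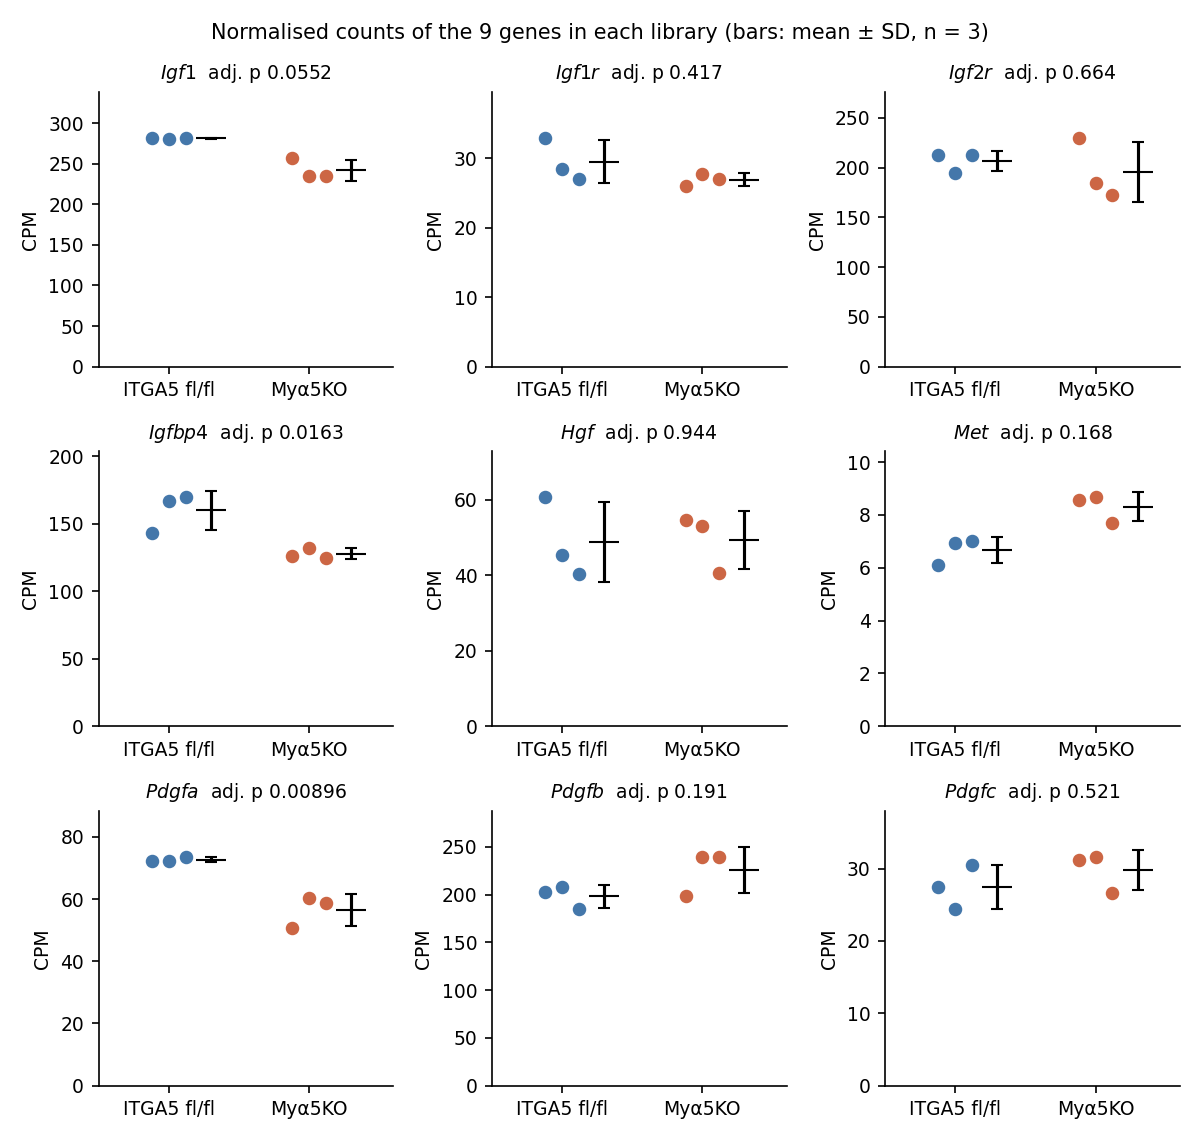
Normalised counts (CPM, vertical axes starting at 0) of the 9 genes in each of the 3 ITGA5 fl/fl (blue) and 3 Myα5KO (orange) libraries, with mean ± SD beside the points and the edgeR adjusted p above each panel. All 3 Myα5KO libraries lay below all 3 controls for Igf1, Igfbp4 and Pdgfa and above them for Met, and of these 4 genes Igfbp4 (0.0163) and Pdgfa (0.00896) passed the threshold.

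Levels of different genes were compared per gene length, in the length-scaled read counts (FPKM) that the authors deposited. In ITGA5 fl/fl macrophages Pdgfb was the most abundant of the 9, at 47.5 ± 2.74 FPKM (SD, n = 3), and its level over all libraries stood at the 93.6th percentile of tested genes. Igfbp4 followed at 36.1 ± 3.28 FPKM, Igf1 at 28.3 ± 0.149 FPKM, Pdgfa at 23.2 ± 0.294 FPKM and Igf2r at 22.1 ± 1.18 FPKM. The libraries of these 5 neighbours did not overlap in level, although Pdgfa and Igf2r were close. Hgf at 6.75 ± 1.48 FPKM and Pdgfc at 5.37 ± 0.603 FPKM overlapped each other. The receptors of the factors were scarce, with Igf1r at 1.75 ± 0.185 FPKM and Met at 0.866 ± 0.0637 FPKM. In Myα5KO macrophages Pdgfb (53.8 ± 5.47 FPKM) and Igfbp4 (28.7 ± 1.05 FPKM) kept ranks 1 and 2. Pdgfa, at 17.99 ± 1.58 FPKM, stood below Igf2r at 20.9 ± 3.38 FPKM, and Igf2r overlapped both Pdgfa and Igf1. In both groups the level of Igf1 was far above that of Igf1r, and the level of Hgf above that of Met.

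**Figure D2:**
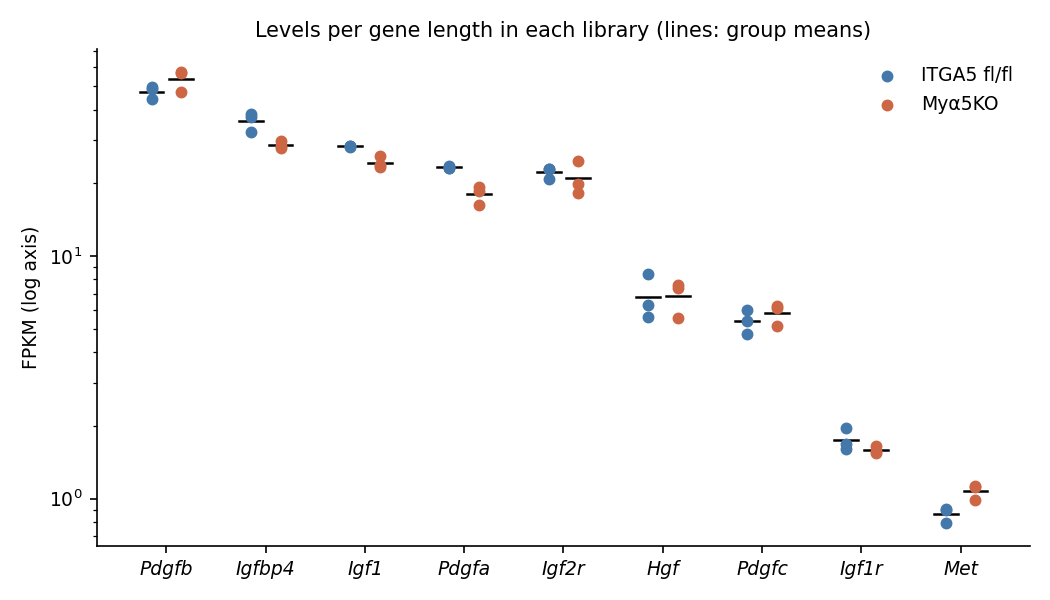
Level of each of the 9 genes per gene length in every library, in FPKM on a log axis, ordered by the ITGA5 fl/fl mean (blue, ITGA5 fl/fl; orange, Myα5KO; lines, group means). Pdgfb was highest in both groups and Met lowest, at 0.866 FPKM in ITGA5 fl/fl and 1.07 FPKM in Myα5KO.

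Pdgfa (ENSMUSG00000025856, GRCm38 chromosome 5, 138976014 to 138997370, minus strand, protein coding) encodes the PDGF-A chain. Its expression was 72.2, 72.2 and 73.6 CPM in the control libraries and 50.7, 60.4 and 58.6 CPM in the Myα5KO libraries. The controls were almost identical, and every Myα5KO library lay below them. Pdgfa fell by 22.2%, from 72.7 ± 0.789 to 56.6 ± 5.12 CPM (SD, n = 3 each), a log2 difference of -0.36 (SE 0.07, adjusted p 0.00896 by edgeR). It was called in each of 16 alternatives, with a log2 difference from -0.41 to -0.28. Of the 3119 exon bases of Pdgfa, 813 (26.1%) also lie in exons of the antisense gene 6330403L08Rik, and whether counting used strand is not given in the sources used here. That gene had 245 to 304 counts per library and was not called (log2 difference -0.17, adjusted p 0.416 by edgeR). The Pdgfa count is uncertain because of the shared bases, and by how much was not tested.

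Pdgfb (ENSMUSG00000000489, chromosome 15, 79995874 to 80014977, minus strand, protein coding), which encodes the chain that recruits pericytes to new vessels, did not fall with Pdgfa. It had 202, 208 and 185 CPM in control and 198, 239.6 and 239 CPM in Myα5KO libraries. Myα5KO replicates 2 and 3 were above every control, whereas replicate 1 was within them. The log2 difference was 0.19 (SE 0.08, 95% interval 0.0098 to 0.36) and was not called (adjusted p 0.191 by edgeR). Pdgfb was called higher without Myα5KO replicate 1 (0.27, adjusted p 0.0450 by edgeR) and with library-size scaling (0.27, adjusted p 0.0494 by edgeR), with 0.0450 to 0.468 across alternatives.

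Because both chains were measured in the same libraries, their ratio does not depend on library scaling. The ratio of Pdgfa to Pdgfb counts was 0.357, 0.348 and 0.398 in control and 0.256, 0.252 and 0.245 in Myα5KO libraries. The groups did not overlap, and the Myα5KO values were almost the same. On the log2 scale the ratio was -1.45 ± 0.103 in control and -1.995 ± 0.033 in Myα5KO (SD, n = 3 each), a difference of -0.55. The exact two-sided permutation p was 0.1, the smallest that 3 against 3 libraries allow, and 0.3 when adjusted over the 3 ratios examined. The other 2 ratios overlapped between the groups. Igf1 to Igfbp4 was 1.66 to 1.97 in control and 1.77 to 2.04 in Myα5KO (exact permutation p 0.3), and Igf1 to Hgf was 4.65 to 7.00 and 4.42 to 5.78 (exact permutation p 0.3).

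**Figure D3:**
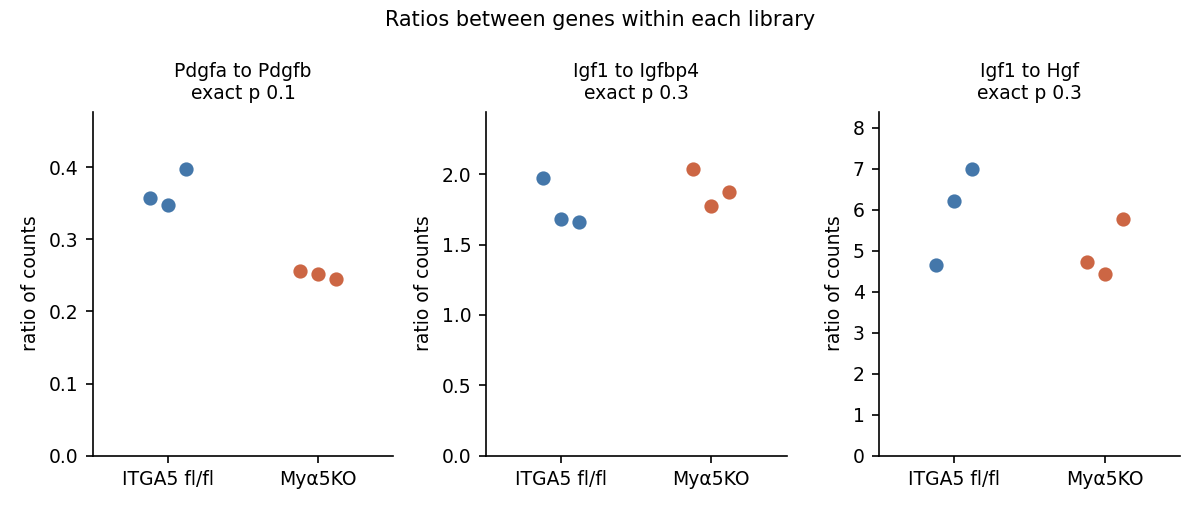
Ratios of read counts between pairs of genes within each library (vertical axes starting at 0; blue, ITGA5 fl/fl; orange, Myα5KO; n = 3 each). The ratio of Pdgfa to Pdgfb was 0.348 or more in the controls and 0.256 or less in the Myα5KO libraries, whereas the other ratios overlapped.

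Pdgfc (ENSMUSG00000028019, chromosome 3, 81036416 to 81214040, plus strand, protein coding) stood at the 59.0th percentile of tested genes by FPKM over all libraries. Its 3 control libraries held 27.4, 24.4 and 30.4 CPM and its 3 Myα5KO libraries 31.1, 31.6 and 26.6 CPM. The groups overlapped, and the log2 difference of 0.12 had a 95% interval from -0.10 to 0.33 (adjusted p 0.521 by edgeR). As a ratio the interval runs from 0.935-fold to 1.26-fold.

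Further PDGF genes were examined to place the chains in their pathway. Of 8 listed genes, all tested, 1 fell and 1 rose, with a median log2 difference of -0.21. At an unadjusted p under 0.05 in edgeR there were 4, against 23.1% of all tested genes. For 4 of the 8 all Myα5KO libraries lay below the controls and for 1 above, where 13.8% and 14.9% of all tested genes did. Furin (ENSMUSG00000030530), the protease that cuts the precursors of PDGF-A, PDGF-B and the IGF-1 receptor, fell from 635 ± 30.8 to 510.3 ± 43.6 CPM (SD, n = 3 each), a log2 difference of -0.32 (SE 0.08, adjusted p 0.0224 by edgeR). All 3 Myα5KO libraries were below the controls, but Furin was not called with library-size scaling. Nrp1 (ENSMUSG00000025810), a co-receptor of VEGF and PDGF, rose from 199 ± 8.82 to 252 ± 21.7 CPM (log2 difference 0.34, adjusted p 0.0137 by edgeR). The libraries did not overlap for Nrp1 either. Lrp1, an endocytic receptor that modulates PDGF receptor signalling and the most abundant gene of this list at 136 FPKM, had a log2 difference of -0.17 (adjusted p 0.428 by edgeR). The PDGF receptors themselves were low per gene length, with Pdgfra at 0.687 FPKM and Pdgfrb at 3.12 FPKM over all libraries. Neither receptor was called (adjusted p 0.275 and 0.422 by edgeR), although for Pdgfra all Myα5KO libraries lay below the controls (log2 difference -0.28). Platelets, a known source of PDGF, left little RNA: 6 platelet markers summed to 7.17 to 14.9 CPM in control and 9.04 to 10.5 CPM in Myα5KO, 0 of 3 tested were called (0 also at an unadjusted p under 0.05), and Gp1bb had 0 counts in every library. Summed markers of mural cells overlapped between the groups, at 136 to 146 and 114 to 151 CPM, with 0 of 6 called (0 also unadjusted). Fibroblast markers, by contrast, summed to 1626 to 1906 CPM in control and 1222 to 1586 CPM in Myα5KO, without overlap. Col1a1, Col1a2, Col3a1 and Postn made up most of that sum. Of the 10 markers 8 had a negative and 2 a positive log2 difference. Those of Dcn, Thy1 and Fap were -0.07, -0.0045 and 0.02, and Ddr2 (0.23) was above the controls in every Myα5KO library. The part of fibroblasts in the fall of Pdgfa was not tested.

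Igfbp4 (ENSMUSG00000017493, chromosome 11, 99041244 to 99054392, plus strand, protein coding) was the other gene that fell. It was at 143, 167 and 169.7 CPM in control and at 126, 132 and 125 CPM in Myα5KO libraries. The lowest control, replicate 1, was close to the highest Myα5KO library. Igfbp4 fell by 20.1%, from 159.9 ± 14.8 to 128 ± 3.97 CPM (SD, n = 3 each), with a log2 difference of -0.32 (SE 0.07, adjusted p 0.0163 by edgeR). The call was lost without control replicate 2 (-0.29, adjusted p 0.0830 by edgeR) or 3 (-0.28, adjusted p 0.0848 by edgeR) and with limma on log2(FPKM + 1) (-0.31, adjusted p 0.0670), with 0.00204 to 0.0848 across alternatives. Fibroblasts also express IGF binding proteins, and the sums of their 10 markers did not overlap between the groups, being lower in Myα5KO. All 10 had counts in each library, 1 (Postn) fell and 0 rose, and 8 had a negative log2 difference. At an unadjusted p under 0.05 there were 5 of the 10, against 23.1% of all tested genes. For 4 of the 10 (Col1a2, Col3a1, Lum and Postn) all Myα5KO libraries lay below the controls, and for 1 above. Of all tested genes 13.8% lay below and 14.9% above in this way. Their part in the fall of Igfbp4 was not tested.

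The promoters of Pdgfa and Igfbp4 are given because these are the genes of the 9 that fell. They are the 250 bases before the annotated RefSeq starts on GRCm38.p6, of which Pdgfa has 2, written 5′ to 3′ on the strand of the gene, and capitals mark matches to any of 5 short motifs searched on both strands.
Pdgfa, chr5:138994282-138994531, minus strand: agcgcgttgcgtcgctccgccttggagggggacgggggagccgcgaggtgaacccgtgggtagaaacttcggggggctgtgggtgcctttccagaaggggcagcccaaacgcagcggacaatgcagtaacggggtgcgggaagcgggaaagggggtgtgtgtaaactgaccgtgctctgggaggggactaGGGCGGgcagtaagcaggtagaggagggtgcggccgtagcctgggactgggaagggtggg
Pdgfa, chr5:138994945-138995194, minus strand: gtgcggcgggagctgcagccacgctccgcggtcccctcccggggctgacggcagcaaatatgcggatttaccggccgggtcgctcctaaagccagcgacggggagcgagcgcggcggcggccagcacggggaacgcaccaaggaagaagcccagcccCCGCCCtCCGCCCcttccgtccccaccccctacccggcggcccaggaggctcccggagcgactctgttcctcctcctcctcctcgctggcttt
Igfbp4, chr11:99040994-99041243, plus strand: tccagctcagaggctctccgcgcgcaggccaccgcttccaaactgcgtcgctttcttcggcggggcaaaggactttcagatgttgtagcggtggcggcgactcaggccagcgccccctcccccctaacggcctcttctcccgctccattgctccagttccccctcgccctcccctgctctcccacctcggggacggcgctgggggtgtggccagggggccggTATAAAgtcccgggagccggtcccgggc
The TATA box was searched as TATAAA, the GC box as GGGCGG, the AP-1 site as TGANTCA, the cyclic AMP response element as TGACGTCA and the CCAAT box by its name. Each window shown matched only 1 of the 5 motifs, so no match overlapped another motif. Pdgfa had 1 GC box in the window with the lower coordinates and 2 in the other, and Igfbp4 had 1 TATA box. Of 32851 promoters in the RefSeq table, 32.7% held the GC box, 12.4% the TATA box, 6.75% the AP-1 site, 1.55% the cyclic AMP response element and 33.8% the CCAAT box. Promoters were found for 8 of the 9 genes, and Pdgfb was not in the table. The GC box was in those of 4 genes (Igf1r, Igf2r, Met and Pdgfa), the AP-1 site in those of 2 (Igf1 and Met), the TATA box in that of 1 (Igfbp4), the CCAAT box in that of 1 (Igf1) and the cyclic AMP response element in 0. Both Pdgfa windows lie inside the span of the gene in the count table, and the Igfbp4 window ends 1 base before its gene begins. None of the 5 was found in the windows of both Pdgfa and Igfbp4.

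Igf1 (ENSMUSG00000020053, chromosome 10, 87858265 to 87937042, plus strand, protein coding), whose product promotes survival of cardiomyocytes and acts on fibroblasts, was close to the threshold. The 3 control libraries held 282, 281 and 281 CPM, and the 3 Myα5KO libraries 257, 235 and 234 CPM. The Myα5KO libraries were all lower, at 86.0% of control on average. The controls varied by 0.196%, less than the 1.47% that counting error alone gives at this depth. The spread between libraries beyond counting that edgeR estimated for Igf1, which borrows from other genes, was 6.22%. The quasi-likelihood test does not take its error from this estimate. The log2 difference of -0.22 (SE 0.07, 95% interval -0.36 to -0.08) had an adjusted p of 0.0552 by edgeR. Igf1 was called in 4 alternatives, among them DESeq2 (-0.22, adjusted p 0.0211) and the fit without Myα5KO replicate 1 (-0.27, adjusted p 0.0340 by edgeR), with 0.0211 to 0.193 across alternatives, and it kept its negative sign in all 16.

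Neither Igf1r nor Igf2r was called, and the libraries of the groups overlapped for both. Igf1r (ENSMUSG00000005533, chromosome 7, 67952827 to 68233668, plus strand, protein coding) was at 32.9, 28.5 and 27.0 CPM in control and 25.9, 27.8 and 26.9 CPM in Myα5KO libraries. Control replicate 1 stood above the other 5 libraries. The log2 difference of Igf1r was -0.13 (95% interval -0.32 to 0.06, adjusted p 0.417 by edgeR), and -0.05 without that library. Igf2r (ENSMUSG00000023830, chromosome 17, 12682406 to 12769664, minus strand, protein coding), far more abundant, was at 213, 195 and 213 CPM in control and 230.1, 185 and 172 CPM in Myα5KO libraries. The Myα5KO libraries spanned the controls on both sides. Its log2 difference was -0.08 (95% interval -0.28 to 0.12, adjusted p 0.664 by edgeR), and without Myα5KO replicate 3 it was 0.0043. The antisense transcript Airn overlaps Igf2r but shares 0 exon bases with it, and had 24 to 45 counts in a library.

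Among 15 other IGF genes 10 were tested, 1 fell and 0 rose, with a median log2 difference of -0.05. At an unadjusted p under 0.05 there were 2. Igfbp5 (ENSMUSG00000026185), a binding protein of the same family as Igfbp4, fell from 28.7, 31.4 and 27.4 CPM in control to 23.2, 22.1 and 22.5 CPM in Myα5KO libraries. The groups did not overlap, and the log2 difference was -0.37 (SE 0.08, adjusted p 0.0170 by edgeR). The most abundant genes of the list were Igfbp7 at 95.3 FPKM, whose product binds IGF weakly, and Irs2 at 39.1 FPKM, the adaptor that carries insulin and IGF-1 receptor signals. Neither was called, with log2 differences of 0.0049 (95% interval -0.19 to 0.20) and -0.0093 (95% interval -0.18 to 0.17). Igf2, Igfbp1, Igfbp2, Igfals and Pappa2 had at most 10 counts in a library and were not tested.

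**Figure D4:**
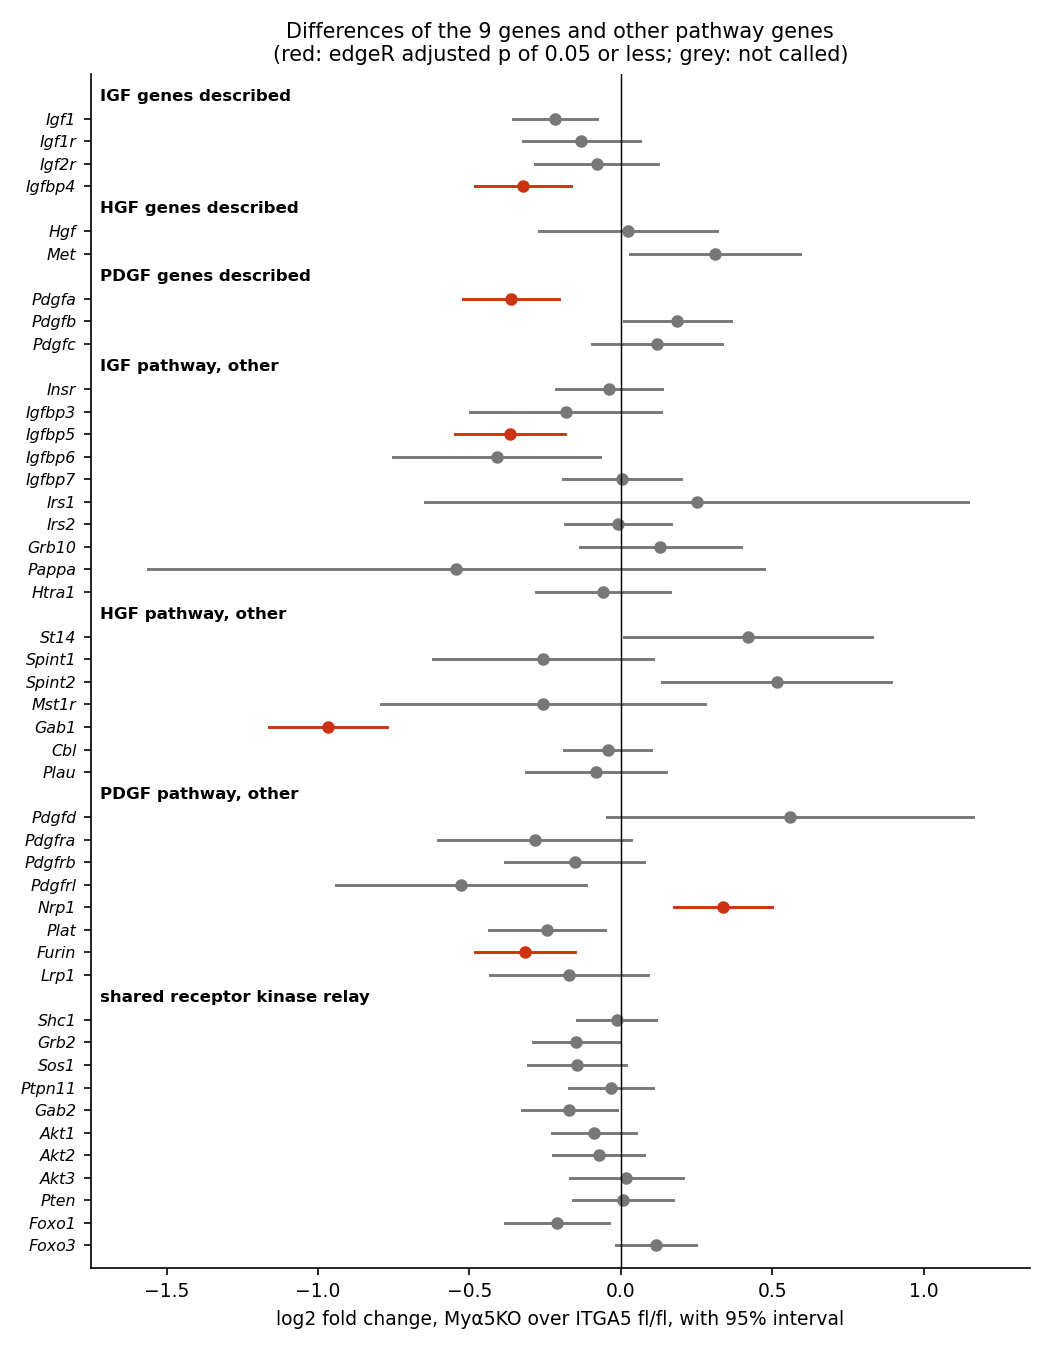
Log2 difference (Myα5KO minus ITGA5 fl/fl) with its 95% interval for the 9 genes and for the tested genes of 4 pathway lists, from edgeR over 14522 genes (red, adjusted p of 0.05 or less; grey, not called). Gab1 stands farthest to the left at -0.97, and Nrp1, at 0.34, is the called gene on the right.

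Hgf (ENSMUSG00000028864, chromosome 5, 16553495 to 16620152, plus strand, protein coding) had the widest spread of the 9 genes among controls. It was at 60.7, 45.3 and 40.2 CPM in control and at 54.5, 53.1 and 40.5 CPM in Myα5KO libraries. Control replicate 1 was the highest and control replicate 3 the lowest of all 6, so the controls alone spanned every Myα5KO value. The coefficient of variation was 21.8% in control and 15.6% in Myα5KO, against a counting error of 3.41%. The log2 difference of 0.02 had a 95% interval from -0.27 to 0.32 (adjusted p 0.944 by edgeR), which runs from 0.828-fold to 1.25-fold and leaves room for change in either direction.

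Met (ENSMUSG00000009376, chromosome 6, 17463800 to 17573980, plus strand, protein coding), the receptor of HGF, had 91, 118 and 123 counts in control and 161, 162 and 146 counts in Myα5KO libraries. These correspond to 6.10, 6.93 and 7.00 CPM and to 8.57, 8.67 and 7.68 CPM. The Myα5KO libraries were all above the controls. The log2 difference was 0.31 (SE 0.13, 95% interval 0.031 to 0.59) and was not called (adjusted p 0.168 by edgeR, with 0.0667 to 0.378 across alternatives). Counting error was 8.65% for this gene, as large as the spread between libraries of a group (7.50% and 6.58%), so depth limits what can be said of it.

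Of 9 other HGF genes 7 were tested, 1 fell and 0 rose, with a median log2 difference of -0.08. Gab1 (ENSMUSG00000031714, chromosome 8, 80764438 to 80880519, minus strand, protein coding), the docking protein that binds activated MET and links receptor kinases to PI-3K and SHP2, had the largest fold change among the called genes of the pathway lists. It was at 154, 139 and 155 CPM in control and at 82.3, 82.3 and 64.6 CPM in Myα5KO libraries. Every Myα5KO library was far below every control. Gab1 fell by 48.8%, with a log2 difference of -0.97 (SE 0.09, adjusted p 5.60e-05 by edgeR). Plau, the plasminogen activator urokinase, which can activate HGF, was the most abundant of the list at 181 FPKM, followed by Cbl, the ubiquitin ligase that removes activated MET and PDGF receptors, at 23.2 FPKM. Their log2 differences were -0.08 and -0.04, and neither was called (adjusted p 0.698 and 0.755 by edgeR). The inhibitor Spint2 had a log2 difference of 0.51 and was called with library-size scaling only (0.59) among the scalings tried.

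The relay that these receptors share was examined with 11 genes of adaptors, kinases, phosphatases and FOXO factors. All were tested, and 0 were called in either direction in edgeR, with 3 at an unadjusted p under 0.05. The median log2 difference was -0.07. The adaptor Grb2, the most abundant at 125 FPKM, had a log2 difference of -0.15 (adjusted p 0.193 by edgeR), and the kinase Akt1, at 62.7 FPKM, one of -0.09 (adjusted p 0.439 by edgeR). For 5 of the 11 the Myα5KO libraries lay below all controls and for 1 above, where 13.8% and 14.9% of all tested genes did. Gab2, the relative of Gab1, had a log2 difference of -0.17 (95% interval -0.33 to -0.01, adjusted p 0.177 by edgeR).

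Genes whose levels most closely followed those of Igf1, Hgf and Pdgfb were listed as a description. The 3792 genes compared had a mean of at least 50 CPM, and those with predicted (Gm), RIKEN or clone-type names were left out. Over the 6 libraries, log2 CPM of Igf1 correlated best with Asxl1 (Pearson r 0.986), C5ar1 (0.986) and Pitpnc1 (0.985). Hgf was closest to Nf2 (0.994), Col15a1 (0.988) and Rftn1 (0.986), and Pdgfb to Ntpcr (0.987), Peli1 (0.984) and Tmem176a (0.984). C5ar1, the receptor for complement C5a, and Pitpnc1 were called lower with log2 differences of -0.42 and -0.24 (adjusted p 0.00988 and 0.0449 by edgeR), and the other 7 were not called. With 6 points many genes reach such values: 230 genes exceeded 0.9 for Igf1, 86 for Hgf and 44 for Pdgfb. The points share the genotype difference and library depth.

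**Figure D5:**
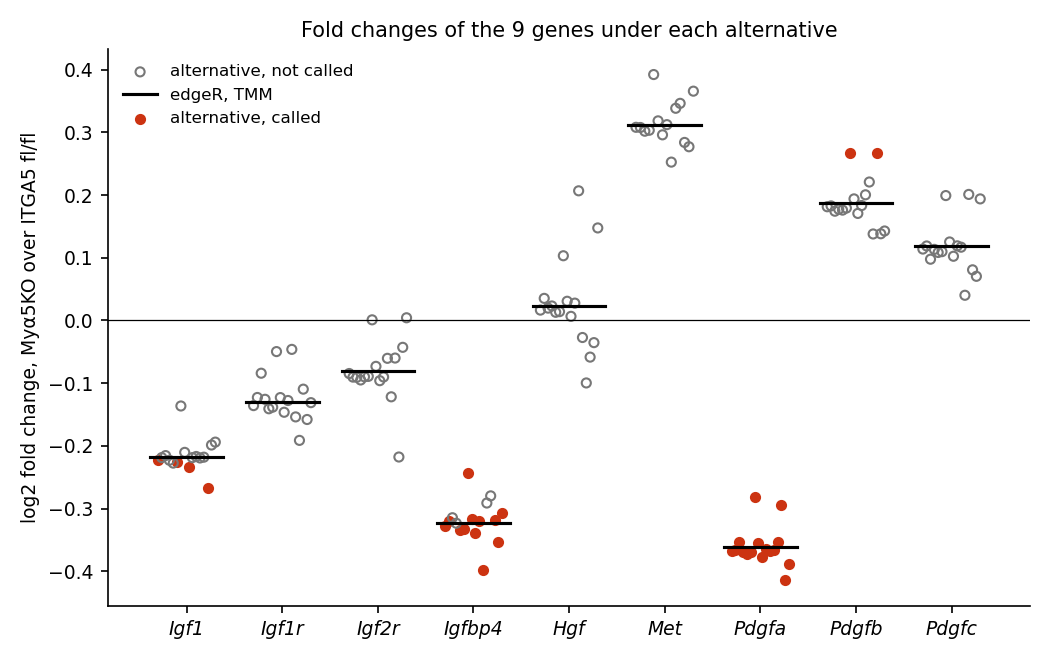
Log2 difference (Myα5KO minus ITGA5 fl/fl) of each of the 9 genes with edgeR and TMM scaling (black line) and under every alternative that gave a value (points; red, adjusted p of 0.05 or less; open, not called). Pdgfa was called throughout, from -0.41 to -0.28, Igfbp4 and Igf1 under some alternatives, Pdgfb under 2, and Hgf and Igf2r had points on both sides of 0.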

How the data were processed

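Per the labels, polyadenylated RNA of Ly6G- CD11b+ cardiac cells was sequenced as paired-end reads. After read trimming the authors mapped to GRCm38.p6 (mm10) with TopHat2 2.0.9 and counted with HTSeq 0.6.1, and the submitters' processing notes also name Cufflinks 2.1.1. The deposited counts are unnormalized integers, and every row named a gene. How multi-mapped reads and strand were treated is not given in the sources used here. The deposited FPKM values equal the counts divided by gene length and a constant per library that was proportional to the DESeq2 size factor. Libraries were assigned to groups from their titles.

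The test was glmQLFTest of edgeR 4.0.16, run in R 4.3.3 (TMM factors, filterByExpr with minimum count 10 and minimum total 15, no covariate). P-values are two-sided and adjusted by Benjamini-Hochberg over all tested genes. Log2 differences are Myα5KO minus control, and standard errors and 95% intervals come from the same fit. The alternatives were DESeq2 1.42.0, limma-voom and limma 3.58.1 with trend on log2(FPKM + 1) and log2(FPKM + 0.1) (genes with an FPKM of 1 or more in 3 or more libraries), other scalings and count filters, the replicate number as a block, and each library left out in turn. Ratios were compared with exact permutation tests. The scripts were tested on simulated data. The 9 genes, the lists and the tests were chosen with earlier results of these data known. Named beside the 9 genes, Itga5 and Lyz2 are the called genes and the 2 most abundant of each pathway list, and the 3 genes most like Igf1, Hgf and Pdgfb. Other genes named were chosen after their values were seen. Reads were amplified and carried no molecular identifiers, so counting errors cover counting only. In the check of libraries, chi-square per degree of freedom was 3.88 or more within groups, so no pair agreed within sampling noise.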

Additional observations from a re-analysis of the deposited data

How the results depend on the processing

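Pdgfa, Igf1r, Met and Pdgfc, and the targets Itga5 and Lyz2, kept their direction and their side of the threshold under every alternative that gave a value. With a library left out, Igf1r ranged from -0.19 to -0.05 (-0.05 without ITGA5 fl/fl replicate 1) and Pdgfc from 0.04 to 0.20 (0.04 without ITGA5 fl/fl replicate 2 and 0.20 without replicate 3). Met fell under the FPKM minimum and had no value on that scale. Igf1 was called with DESeq2 (-0.22), upper quartile scaling (-0.23) and 10 counts in every library (-0.23), was -0.14 and not called with library-size scaling (adjusted p 0.181 by edgeR), and ranged from -0.27 to -0.19 over the 6 fits that left out a library. Igfbp4 lost its call on log2(FPKM + 1) (-0.31) and log2(FPKM + 0.1) (-0.32), and ranged from -0.40 to -0.28 with a library left out. Pdgfb passed the threshold with library-size scaling (0.27; 0.14 to 0.27 with a library left out), and Igf2r turned to 0.0010 there (-0.22 to 0.0043). Hgf ranged from -0.10 to 0.21 with a library left out. The cause was not tested.

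The number of the 9 genes called lower was 1 with either FPKM pseudocount and 1 to 3 with a library left out. It was 1 without ITGA5 fl/fl replicate 2 or 3. The number called higher was 1 with library-size scaling and 0 to 1 with a library left out. Over all tested genes, 754 were lower and 517 higher. With a library left out these were 429 to 671 and 187 to 420, fewer by construction and fewest without ITGA5 fl/fl replicate 3, with log2(FPKM + 1) 322 and 150, with log2(FPKM + 0.1) 306 and 142, and without a count filter 798 were higher. That last fit had infinite prior degrees of freedom, so its p-values were kept out of the ranges given. Library-size scaling gave 1212 higher genes, shifted the higher share of calls from 40.7% to 70.1%, and moved the median log2 difference of all tested genes from 0.0146 to 0.0950. With it 0 genes of the PDGF list were called lower and 1 of the HGF list (Spint2) higher. With a library left out, Pdgfa to Pdgfb ranged from -0.59 to -0.49, Igf1 to Igfbp4 from 0.047 to 0.18 and Igf1 to Hgf from -0.41 to -0.12. All 3 ratios kept their sign, but for Pdgfa to Pdgfb this was fixed in advance because the groups did not overlap. On FPKM the differences are the same as on counts by construction.

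Deviations of same-numbered libraries from their group means correlated at 0.0532, -0.107 and 0.0338. For libraries of different numbers the correlations ran from -0.125 to 0.103. Deviations within a group are tied to each other by construction, so these values cannot show whether replicate numbers pair the libraries. With the replicate number as a block, 717 genes were lower and 464 higher, and 2 of the 9 (Pdgfa at -0.36 and Igfbp4 at -0.32) were lower and 0 higher.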

Other observations

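The abundant endocytic receptors among these genes varied within the Myα5KO group in the same order. Lrp1 was at 2697, 2338 and 1777 CPM and Igf2r at 230.1, 185 and 172 CPM in Myα5KO replicates 1, 2 and 3, whereas the ITGA5 fl/fl libraries held 2708, 2369 and 2600 CPM of Lrp1. Fibroblast markers also summed lowest in Myα5KO replicate 3, at 1222 CPM, against 1586 and 1439 CPM in replicates 1 and 2. Not all markers followed that sum. Within the Myα5KO group Col1a1, Col1a2, Col3a1 and Postn were lowest in replicate 3, whereas Dcn, Lum, Thy1 and Ddr2 were highest there. With 3 libraries this order was not tested.

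Of 7 endothelial markers, all tested, 1 was called higher and 0 lower, and 4 log2 differences were positive and 3 negative. The called gene was Kdr, with a log2 difference of 0.26 (adjusted p 0.0433 by edgeR). Pecam1, at 0.17, was not called (adjusted p 0.142 by edgeR). The 7 endothelial markers summed to 321 to 366 CPM in ITGA5 fl/fl and 347 to 393 CPM in Myα5KO libraries, which overlapped. Among macrophage markers, 1 of 8 was called: Fcgr1, which encodes the Fc receptor CD64, rose from 186, 198 and 201 CPM to 235, 243 and 226 CPM (adjusted p 0.0215 by edgeR).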
